A study of Rattus norvegicus with 19 samples.

Results

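Hbb, Hba-a3, Alas2, Slc4a1, Ahsp and Epb42 are genes of red blood cells, measured here in RNA of the left ventricle of the rat heart. They were chosen by symbol, as 6 of the 14217 genes tested, after their levels on these 19 arrays had been seen to differ between rats of the same group, so their levels and the way they move together are described below with no test. Of the probe sets that named 1 gene, 7 belonged to these 6 genes, with 2 for Slc4a1 and 1 for each of the others. All hearts came from male Dahl salt-sensitive rats (Harlan SS/Hsd), a strain that becomes hypertensive on a salty diet, and every rat, the baseline ones included, ate 6% NaCl from 6 weeks of age. The combination group (4 rats, 15 weeks old) received enalapril, an inhibitor of angiotensin-converting enzyme, at 90 ug a day from an osmotic pump and paricalcitol, a drug that switches on the vitamin D receptor, at 200 ng per injection, 3 times a week, for 4 weeks. The enalapril group (3 rats, 15 weeks) received the pump with vehicle injections, the paricalcitol group (4 rats, 15 weeks) the paricalcitol injections alone, and the vehicle group (4 rats, 15 weeks) vehicle injections alone, each for 4 weeks. The baseline group (4 rats, 11 weeks) was taken untreated after 5 weeks of the diet. There was no group on a normal diet, age and added weeks of salt go together, and the dose of enalapril had been set not to lower blood pressure. One array was hybridised per rat.

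Red cells are made in the bone marrow. A young red cell, the reticulocyte, has lost its nucleus but still carries messenger RNA, which it loses as it matures in the blood, so that red cell transcripts in a heart sample are usually read as RNA of the blood that its vessels held. Hbb and Hba-a3 encode a beta and an alpha-type globin, the protein chains of haemoglobin. Alas2 makes the erythroid form of aminolevulinate synthase, which starts haem synthesis, and Ahsp makes a chaperone that holds free alpha globin. Slc4a1 encodes band 3, the anion exchanger of the red cell membrane, and Epb42 encodes protein 4.2, which ties band 3 to the membrane skeleton. In bulk tissue, fewer cells of a type and less RNA per cell cannot be told apart.

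The 250 bases before the RefSeq start were searched for words that erythroid promoters are known to use. The sequences are RefSeq's in build GRCr8, and of the 6 genes 4 were matched (Hbb, Epb42, Hba-a3 and Alas2; Slc4a1 and Ahsp were not). The words were the GATA word (AGATAA or AGATAG or TGATAA or TGATAG), the word CACCC and the word CCAAT, on both strands, and capitals mark every match. The windows are chr1:167663722-167663971, minus strand for Hbb, chr10:15816944-15817193, minus strand for Hba-a3, chrX:22895200-22895449, plus strand for Alas2 and chr3:128451684-128451933, minus strand for Epb42.
Hbb: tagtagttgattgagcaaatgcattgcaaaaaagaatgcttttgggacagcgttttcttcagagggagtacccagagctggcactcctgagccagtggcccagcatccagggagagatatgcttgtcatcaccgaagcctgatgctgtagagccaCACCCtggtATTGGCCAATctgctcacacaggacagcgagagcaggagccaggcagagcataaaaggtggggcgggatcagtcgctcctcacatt
Hba-a3: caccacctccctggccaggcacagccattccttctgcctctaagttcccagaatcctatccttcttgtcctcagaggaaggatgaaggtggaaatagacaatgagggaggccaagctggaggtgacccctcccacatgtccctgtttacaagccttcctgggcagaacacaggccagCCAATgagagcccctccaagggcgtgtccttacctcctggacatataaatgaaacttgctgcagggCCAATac
Alas2: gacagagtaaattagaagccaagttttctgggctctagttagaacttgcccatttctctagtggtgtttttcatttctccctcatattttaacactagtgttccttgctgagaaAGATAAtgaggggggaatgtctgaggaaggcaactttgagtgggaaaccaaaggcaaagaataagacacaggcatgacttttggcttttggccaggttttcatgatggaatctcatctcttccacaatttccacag
Epb42: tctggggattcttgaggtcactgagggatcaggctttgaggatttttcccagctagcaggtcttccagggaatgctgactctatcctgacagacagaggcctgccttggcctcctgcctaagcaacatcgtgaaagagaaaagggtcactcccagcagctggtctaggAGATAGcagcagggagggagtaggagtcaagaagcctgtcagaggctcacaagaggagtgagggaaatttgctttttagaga
The Hbb window held 1 CACCC match and 2 CCAAT matches, 1 on each strand and abutting, and no GATA match. The Hba-a3 window held 2 CCAAT matches and neither of the other words. Alas2 and Epb42 each held 1 GATA match and neither of the other words. Of 33469 rat promoters of the same length, 27.0% held a GATA word, 49.2% CACCC and 34.0% CCAAT. These matches are letters in a window and say nothing of binding or of how levels differed between rats.

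Levels are log2 of the quantile-normalized intensity plus 16, a scale on which the floor is 4, and fold changes of faint genes are understated on it. Array medians ran from 43.6 to 72.6 intensity units before normalization, and the number of arrays limits the precision. The heart label was checked with 11 measured cardiomyocyte markers, which had high signal on these arrays, with mean levels from 12.82 (Myh6) to 14.37 (Nppa). Levels of different probe sets do not rank transcripts. Hbb had a mean level of 14.08, between ranks 5 and 57 of 31099 probe sets on the single arrays.

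Alas2, the first enzyme of erythroid haem synthesis, had 11.60, 9.17, 9.63 and 11.37 in combination replicates 1 to 4, and 9.77, 11.57 and 10.97 in enalapril replicates 1 to 3. In paricalcitol replicates 1 to 4 it had 11.21, 9.93, 9.23 and 11.66, against 10.96, 10.08, 11.34 and 10.33 in vehicle replicates 1 to 4. At baseline it had 10.85, 11.10, 11.29 and 10.73. Combination replicates 2 and 3, paricalcitol replicates 2 and 3 and enalapril replicate 1 were low, and each of those groups also held arrays as high as any in vehicle or at baseline. The group SD was 1.22 in the combination, 0.92 in enalapril, 1.13 in paricalcitol, 0.58 in vehicle and 0.25 at baseline (n = 4, 3, 4, 4 and 4). In the deposited intensities Alas2 ran from 501 on paricalcitol replicate 3 to 3924 on paricalcitol replicate 4, a 7.83-fold range between rats given the same drug. The medians of these 2 arrays were 50.5 and 66.1 intensity units, and after normalization the range between them was 5.41-fold.

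**Figure D1:**
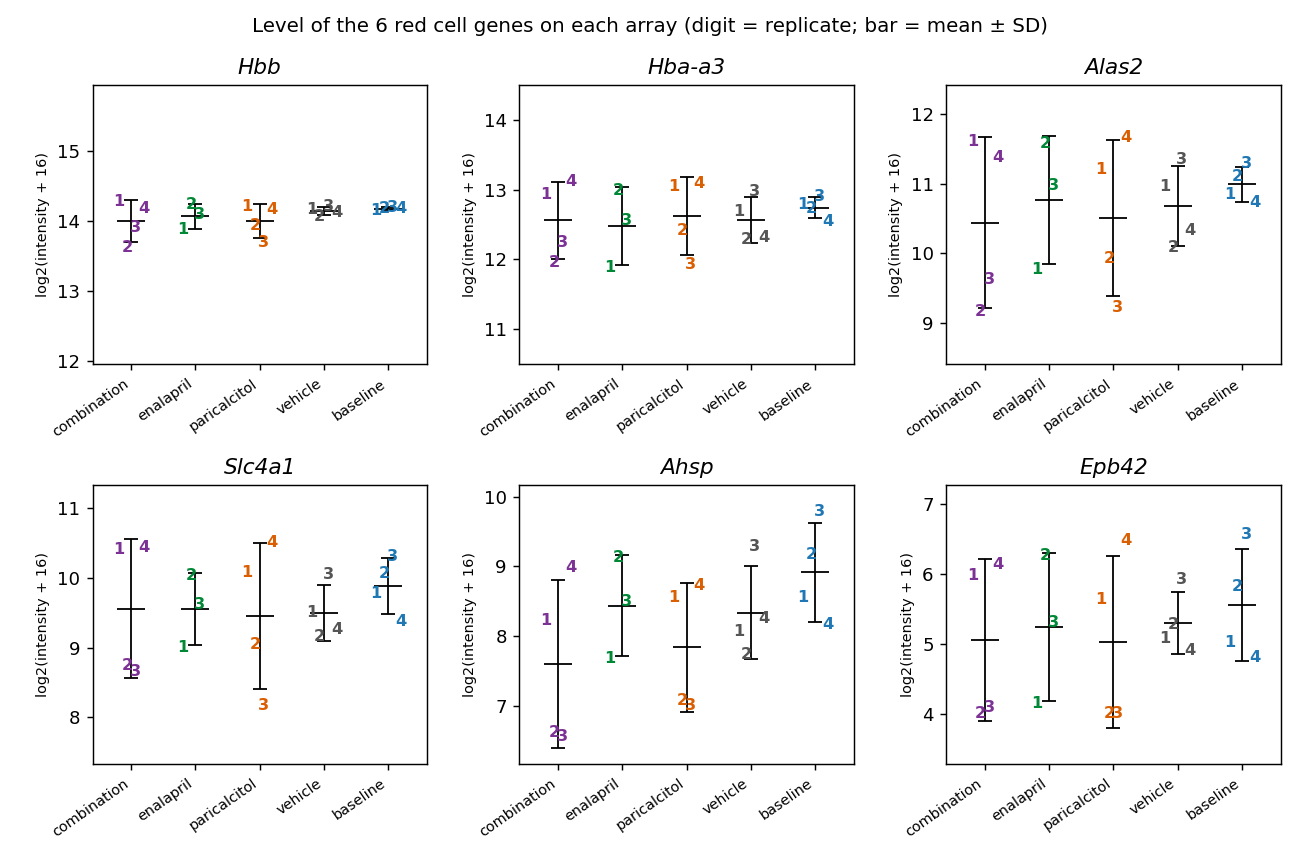
Level of each red cell gene, as log2(intensity + 16), on every array of the combination, enalapril, paricalcitol, vehicle and baseline groups; digits are replicate numbers, and the bar and whiskers are the mean and SD. All panels span 4 log2 units, so Hbb (range 0.66) is seen as nearly flat beside Ahsp (range 3.22), and replicates 2 and 3 are the low ones in both the combination and the paricalcitol group.

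Slc4a1, the band 3 gene, followed the same arrays. Its brighter probe set had 10.40, 8.74, 8.66 and 10.44 in combination replicates 1 to 4, 9.00, 10.03 and 9.62 in enalapril replicates 1 to 3, and 10.07, 9.05, 8.17 and 10.50 in paricalcitol replicates 1 to 4. Vehicle replicates 1 to 4 had 9.51, 9.16, 10.05 and 9.26, and baseline replicates 9.78, 10.06, 10.30 and 9.37. The lowest and the highest level of the 19 were both in the paricalcitol group. The second Slc4a1 probe set lay lower, from 7.29 to 9.21, and its deviations from the group means had a Pearson r of 0.96 and a Spearman rho of 0.95 with those of the first over 19 arrays.

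Ahsp, the alpha globin chaperone, had 8.23, 6.62, 6.56 and 8.99 in combination replicates 1 to 4, 7.68, 9.12 and 8.50 in enalapril replicates 1 to 3, and 8.55, 7.08, 7.01 and 8.72 in paricalcitol replicates 1 to 4. Vehicle replicates had 8.06, 7.74, 9.28 and 8.25, and baseline replicates 8.56, 9.17, 9.78 and 8.16. Baseline replicate 3 was the highest of the 19 arrays, and the deposited intensity ran from 63.1 to 897 over the 19 arrays. Its mean was 7.60 ± 1.20 in the 4 combination rats, 8.43 ± 0.72 in the 3 enalapril rats, 7.84 ± 0.92 in the 4 paricalcitol rats, 8.33 ± 0.67 in the 4 vehicle rats and 8.92 ± 0.71 in the 4 baseline rats (± SD). The groups overlapped in each of the comparisons below.

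Epb42, the protein 4.2 gene, was faint. It had 5.98, 4.00, 4.09 and 6.13 in combination replicates 1 to 4, 4.15, 6.27 and 5.30 in enalapril replicates 1 to 3, and 5.63, 4.00, 4.00 and 6.48 in paricalcitol replicates 1 to 4. Vehicle replicates had 5.08, 5.27, 5.92 and 4.91, and baseline replicates 5.02, 5.82, 6.56 and 4.80. The 3 arrays at 4.00 had deposited values below 0, so their level is only known to lie at or under the floor, and all 3 were arrays on which the other reticulocyte genes were low too.

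Both globin members covered a smaller range. Hba-a3 had 12.93, 11.96, 12.24 and 13.12 in combination replicates 1 to 4, 11.88, 12.99 and 12.56 in enalapril replicates 1 to 3, and 13.04, 12.42, 11.92 and 13.09 in paricalcitol replicates 1 to 4. Vehicle replicates had 12.68, 12.29, 12.97 and 12.31, and baseline replicates 12.79, 12.73, 12.90 and 12.54. The order of arrays was close to that of Alas2 over a range of 1.24 instead of 2.49. Hbb had 14.28, 13.62, 13.91 and 14.18 in combination replicates 1 to 4, 13.88, 14.23 and 14.09 in enalapril replicates 1 to 3, and 14.21, 13.94, 13.69 and 14.16 in paricalcitol replicates 1 to 4. Vehicle replicates had 14.16, 14.07, 14.21 and 14.12, and baseline replicates 14.15, 14.18, 14.20 and 14.18. The same arrays were low, but the whole range was 0.66, and the baseline arrays lay within 0.05 of each other. In deposited intensity Hbb ran over a 1.76-fold range and Hba-a3 over a 2.93-fold range, against 7.83-fold for Alas2 and 14.2-fold for Ahsp. After normalization these ranges were 1.58-fold for Hbb, 2.37-fold for Hba-a3, 5.63-fold for Alas2 and 9.30-fold for Ahsp.

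Baseline had the highest group mean for all 6 genes. The full order of the group means was the same for Alas2 and Ahsp and otherwise differed from gene to gene. For every gene, the gap between neighbours in that order was smaller than the larger of their SDs. The widest gap, for Ahsp between vehicle and paricalcitol, was 0.49 with a larger SD of 0.92.

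Each of 6 comparisons asked what the added weeks of salt with vehicle, a drug, or a drug on top of the other changed. Their differences are given as descriptions, and the counts come from a limma fit to all 14217 genes with Benjamini-Hochberg adjustment at 0.05. The comparisons with vehicle share its arrays, and those of the combination share its own. Each SE rests on 1 spread per gene over all 5 groups, although the groups differed in spread. For Hbb the SD was 0.30 in the combination, 0.06 in vehicle and 0.02 at baseline. The SEs of vehicle against baseline thus carry the spread of the groups given a drug too.

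In vehicle against baseline the log2 differences of the 6 genes lay between -0.59 (SE 0.60) for Ahsp and -0.03 (SE 0.13) for Hbb, all lower in vehicle. In this comparison 0 of 6 passed, against 0.0844% of all genes, 0 of 6 had an unadjusted p under 0.05, against 9.2%, and 0 of 6 were without overlap, against 7.77%. Alas2 had -0.31 (SE 0.61).

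In paricalcitol against vehicle the differences lay between -0.49 (SE 0.60) for Ahsp and 0.05 (SE 0.31) for Hba-a3, with Alas2 at -0.17 (SE 0.61). Here 0 of 6 passed, against 0.0141% of all genes, and 0 of 6 had an unadjusted p under 0.05, against 9.64%. In enalapril against vehicle they lay between -0.09 (SE 0.33) for Hba-a3 and 0.10 (SE 0.65) for Ahsp. Again 0 of 6 passed, against 0% of all genes, and 0 of 6 had an unadjusted p under 0.05, against 5.64%. The groups overlapped for all 6 genes in both comparisons, where 5.04% of all genes were without overlap for paricalcitol and 8.53% for enalapril.

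In the combination against vehicle Ahsp had -0.73 (SE 0.60), Alas2 -0.23 (SE 0.61), Slc4a1 0.07 (SE 0.51) and Hbb -0.15 (SE 0.13). In this comparison 0 of 6 passed, against 0.00703% of all genes, 0 of 6 had an unadjusted p under 0.05, against 7.68%, and 0 of 6 were without overlap, against 4.23%. Against enalapril alone the combination had -0.83 (SE 0.65) for Ahsp and -0.32 (SE 0.66) for Alas2. None of the 6 passed, against 0% of all genes, 0 of 6 had an unadjusted p under 0.05, against 5.3%, and 0 of 6 were without overlap, against 4.94%. Against paricalcitol alone the 6 differences lay between -0.24 (SE 0.60) for Ahsp and 0.12 (SE 0.51) for Slc4a1. There 0 of 6 passed, against 0% of all genes, 0 of 6 had an unadjusted p under 0.05, against 9.05%, and 0 of 6 were without overlap, against 3.43%.

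Most of the variation of these genes over the 19 arrays lay between rats of one group. Differences between group means made up 28.2% of it for Ahsp, 17.3% for Hbb and between 4.63% and 6.32% for the other four, where the median of 13706 genes was 23.6%. The residual SD within groups was 0.98 for Epb42, 0.89 for Alas2, 0.88 for Ahsp, 0.74 for Slc4a1, 0.45 for Hba-a3 and 0.19 for Hbb, where the median gene had 0.24. Alas2 ranked 193 among the 14217 genes, and its SD was 5.92 times the median of the 500 genes nearest to it in level. The ratio was 5.06 for Ahsp, 4.64 for Slc4a1, 3.60 for Hba-a3, 2.34 for Epb42 and 1.54 for Hbb. Bright genes varied less as a rule, so Hbb lay above 82.2% of its neighbours in level although it lay above only 37.4% of all genes. The genes were chosen after their spread within groups had been seen, so these shares, ranks and ratios describe that choice and test nothing.

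**Figure D2:**
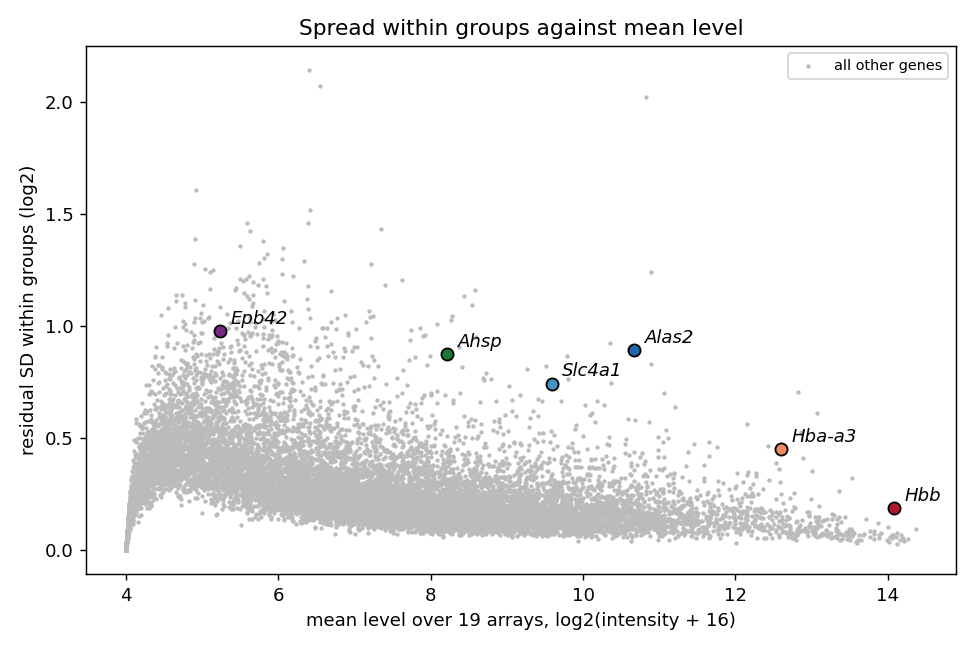
Residual SD within groups (log2) against mean level over 19 arrays, 1 point per gene, with the 6 red cell genes as large points. The 4 reticulocyte genes lie between 0.74 and 0.98, well above the bulk of genes of their level, and Hbb lies at 0.19 at the bright end. The 6 genes were chosen with their spread known.

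Deviations from the group means ran together in all 6 genes. Over 19 arrays the 15 pairs had a Pearson r between 0.80 (Hbb and Ahsp) and 0.97 (Hba-a3 and Alas2) and a Spearman rho between 0.86 and 0.97. Without the 2 arrays farthest from the median of the first gene of a pair, r lay between 0.80 and 0.96. Group means were removed before this, and the genes share the arrays and their normalization. No p is given, since the genes were chosen for this pattern.

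On the mean of Alas2, Slc4a1, Ahsp and Epb42, the deviations of replicates 1 to 4 were 0.89, -1.03, -0.93 and 1.07 in the combination and 0.66, -0.69, -1.10 and 1.13 in paricalcitol. Vehicle replicates had -0.05, -0.39, 0.70 and -0.26, and baseline replicates -0.28, 0.20, 0.65 and -0.57. Enalapril replicates 1 to 3 had -0.85, 0.75 and 0.10. Arrays of the same number were high or low together in the combination and paricalcitol groups. Vehicle and baseline shared the sign on replicates 1, 3 and 4, with replicate 3 the highest in both, and differed on replicate 2. Enalapril and baseline shared it on replicates 1 to 3. Enalapril had the opposite sign to the combination and to paricalcitol on replicates 1 to 3, and baseline on replicates 1 to 4. Vehicle had the opposite sign to both on replicates 1, 3 and 4. Deviations cancel out within each group, so some sharing or opposition of signs arises without any link between arrays. Whether replicate number played a part was not tested. The labels number the rats within each group and do not say that equal numbers share a litter, a day or a batch.

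**Figure D3:**
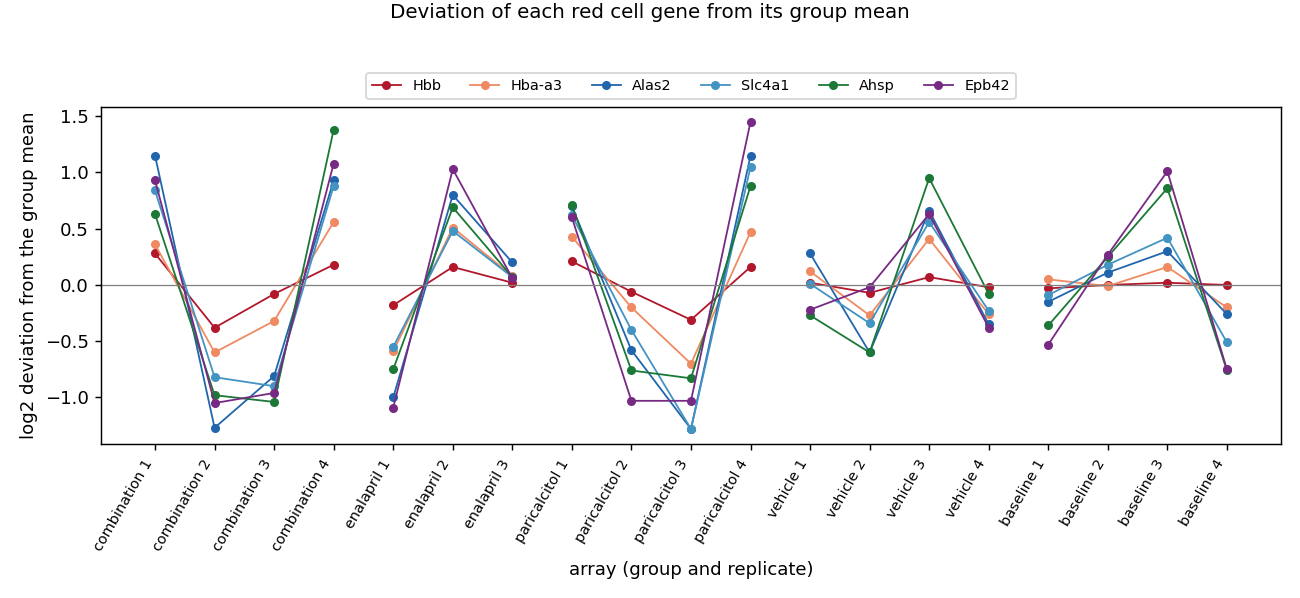
Log2 deviation of each of the 6 genes from its group mean on every array, with arrays ordered by group and replicate. The lines of the 6 genes rise and fall on the same arrays, from -1.28 for Alas2 on paricalcitol replicate 3 to 1.45 for Epb42 on paricalcitol replicate 4, with Hbb the flattest.

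Hbb and Hba-a3 moved over a smaller range than the reticulocyte genes. Per log2 unit of Alas2, Hbb moved by 0.20 log2 units and Hba-a3 by 0.49, while Slc4a1 moved by 0.81, Ahsp by 0.89 and Epb42 by 1.01. Over these 5 probe sets the slope was lower where the mean signal was higher, from Epb42 at 5.23 to Hbb at 14.08. The Hbb probe set lay at ranks 5 to 57 on the arrays, near the top of the measured range, and the part of this in its low slope was not tested. Hbb did not follow on every array: its deviation was -0.08 on combination replicate 3, against -0.93 for the reticulocyte mean, and -0.03 to 0.02 on the baseline arrays, against -0.57 to 0.65. The values for Epb42 depend on the pseudocount (2.45 with 1 and 0.45 with 64). In the deposited intensities Hbb lay between 17289 and 20393 on every vehicle and baseline array, which spanned 1034 to 2560 for Alas2, and fell to 11585 and 12573 on the 2 arrays with Alas2 at 510 and 501.

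Probe sets shared by several globins differed among themselves in size and direction. The 2 probe sets annotated to a pair of beta-like globins had r = 0.97 and 0.94 with the reticulocyte mean over 19 arrays (rho 0.98 and 0.94), and deposited intensities over a 2.69-fold and a 2.68-fold range. The probe set of a pair of theta globins had r = 0.90 (rho 0.89), with intensities from 111 to 534, a 4.80-fold range that lay above that of Hba-a3 and below the 5.49-fold range of the second Slc4a1 probe set. Of the 3 probe sets annotated to a pair of alpha globins, 1 had r = 0.89 (rho 0.91), and the other two had r = -0.49 (rho -0.42) and r = -0.87 (rho -0.91). These r are of normalized levels. In deposited intensity the last set had 14575, 15434, 18436 and 15508 in combination replicates 1 to 4. In paricalcitol replicates 1 to 4 it had 14152, 16618, 18349 and 14702. Replicate 3 was thus the highest and replicate 1 the lowest in both groups, but combination replicate 2 lay below replicate 4. All 3 alpha sets lay between ranks 7 and 48 on every array. The sequences of alpha globin genes are nearly alike, so signals of the single genes, Hba-a3 included, are uncertain, and the same holds for Hbb among the beta globins. The globins of the embryo were at or near the floor: Hbz was listed below 0 on all 19 arrays, and Hbe1, Hbe2 and Hbg1 had mean levels between 4.33 and 4.69.

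**Figure D4:**
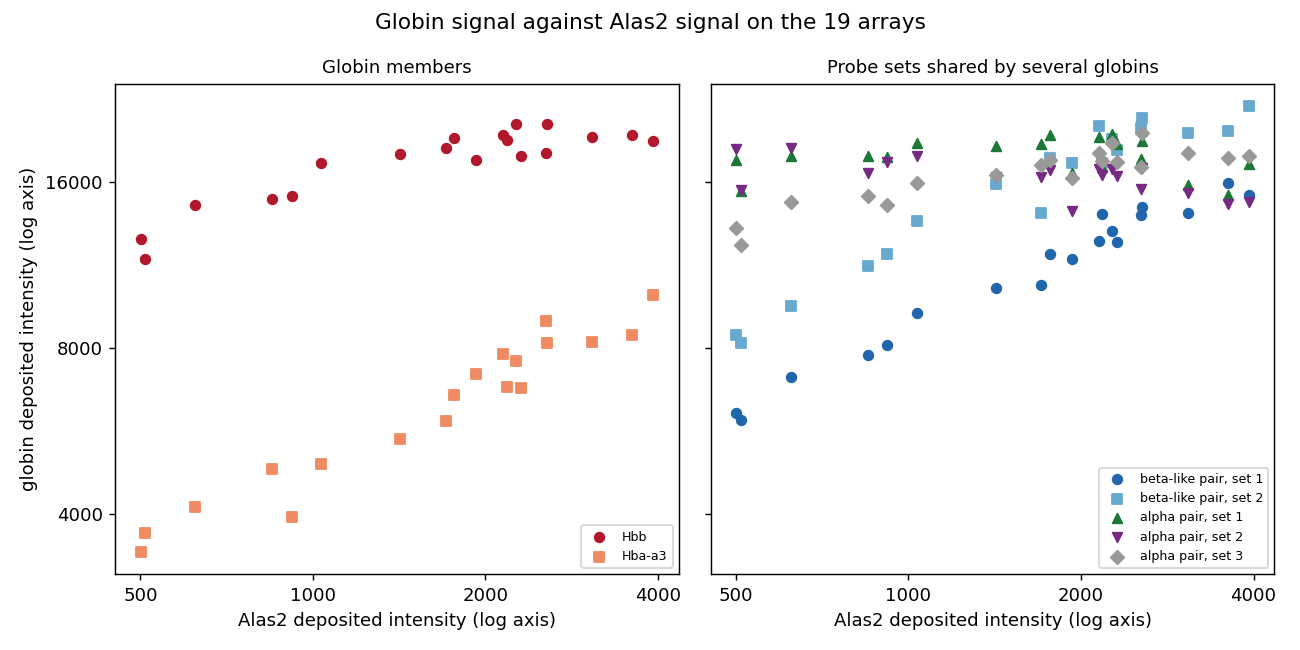
Deposited intensity of globin probe sets against that of Alas2, both on log axes, with 1 point per array. Hba-a3 and the beta-like sets climb along the whole Alas2 range (501 to 3924), Hbb stays at or under 20393 units, and 1 alpha set falls from 18349 to 14702 between the arrays with the least and the most Alas2.

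Other genes of red cells varied with these 6. Of 11 measured genes of late red cell precursors, 9 had an r over 0.5 with the reticulocyte mean (median 0.91), where 10.6% of 13700 genes did (median -0.02). They included Prdx2, a peroxide-removing enzyme abundant in red cells (r = 0.86), Bnip3l, which clears mitochondria from reticulocytes (0.91), and Tfrc, the transferrin receptor (0.55). Tfrc is not limited to red cells, and its level in the paricalcitol group alone ran from 8.46 to 11.63. Membrane and cytoskeleton genes were mixed: 5 of 12 had an r over 0.5, and 1, Xk, was under -0.5, at -0.77. The 3 brightest, Tmod1 (0.16), Ank1 (-0.40) and Gypc (-0.44), which heart or other cells also express, were not over 0.5. Rhd, the Rh antigen gene, had 0.96. Of 9 erythroid regulators 3 were over 0.5, with Nfe2, a transcription factor of red cell and platelet precursors, at 0.86, and with Lmo2 (0.03), Tal1 (0.33) and Epor (-0.07), the erythropoietin receptor, below it. Rhd, Xk and Nfe2 are named here after their values were seen.

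The haem pathway split by enzyme. Fech, ferrochelatase, which puts iron into haem in the last step, had r = 0.98 with the reticulocyte mean, and its mean was 10.86 ± 0.44 in the 4 combination rats, 10.66 ± 0.36 in the 3 enalapril rats, 10.76 ± 0.38 in the 4 paricalcitol rats, 10.74 ± 0.23 in the 4 vehicle rats and 10.92 ± 0.19 in the 4 baseline rats (± SD). Alas1, the form of the first enzyme that all tissues use, had r = 0.39 and Urod, uroporphyrinogen decarboxylase, 0.41. Of the 9 measured genes of haem synthesis that are not limited to red cells, Fech was the 1 with an r over 0.5, and 2 were under -0.5. Of 5 haem proteins listed for the heart, which other cells may also make, 3 were under -0.5: Cyb5a, cytochrome b5, had -0.79, Cyc1, cytochrome c1, -0.57 and Sdhc, a subunit of succinate dehydrogenase, -0.55. The other two were Mb, myoglobin, at -0.23 and Cygb, cytoglobin, at 0.39. Cyb5a and Cygb are named after their values were seen. Over all genes 12.5% were under -0.5, and of 7103 genes brighter than the median, as all 5 were, 17.9%. Such an r was thus not particular to haem proteins.

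**Figure D5:**
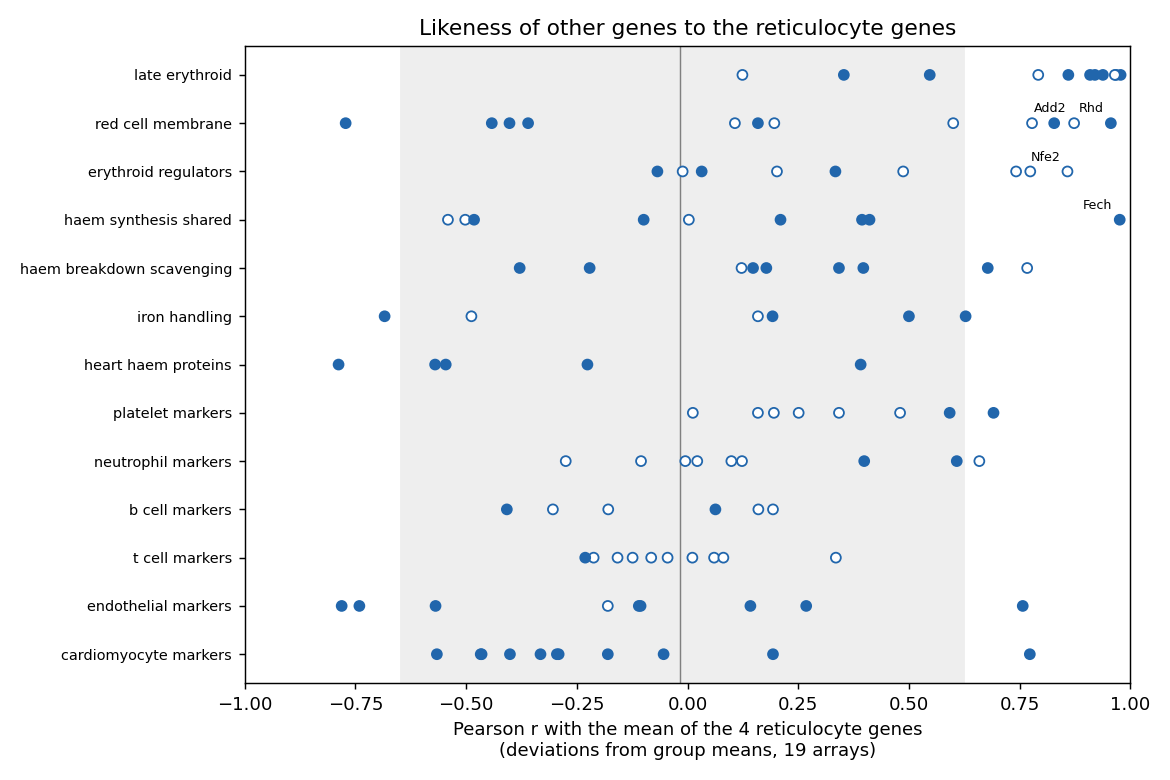
Pearson r of each listed gene's deviations from group means with the mean of the 4 reticulocyte genes over 19 arrays, 1 point per gene, filled where its mean level was above the median of all genes. The band spans the 5th to the 95th percentile of all genes (-0.65 to 0.63), and most genes of late red cell precursors lie to its right. Some genes of other lists do too, among them Fech (0.98), Rhd (0.96), Nfe2 (0.86), Nppa (0.77), Hp (0.77) and Vwf (0.76).

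Among 7103 genes brighter than the median, 26 had an r over 0.9. The 10 most like the reticulocyte mean over 19 arrays were Myo5c (0.99), an unconventional myosin, Ybx3 (0.98), an RNA-binding cold-shock protein, Car2 (0.98), the carbonic anhydrase of red cells among other tissues, Fech (0.98), Gch1 (0.97), which starts biopterin synthesis, Emb (0.97), embigin, Bpgm (0.97), which makes the red cell's 2,3-bisphosphoglycerate, Mkrn1 (0.96), a ubiquitin ligase, Cd52 (0.96), a surface glycoprotein of leukocytes, and Tfdp2 (0.96), a partner of E2F factors. Most like Hba-a3 were Fech, Rsad2, Ybx3, Car2 and Bpgm, with r from 0.96 to 0.97. Most like Hbb were Cd52, Ube2o, a ubiquitin enzyme, Cdc25b, Rnf25 and Alox15, with r from 0.93 to 0.95.

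Alox15, a lipoxygenase known in rabbits to break down mitochondria of reticulocytes, varied more between rats than any of the 6 genes. It had 12.62, 5.59, 8.12 and 12.50 in combination replicates 1 to 4, 10.55, 11.48 and 11.71 in enalapril replicates 1 to 3, and 12.21, 8.59, 7.91 and 12.89 in paricalcitol replicates 1 to 4. Vehicle replicates had 10.89, 10.48, 12.01 and 10.86, and baseline replicates 11.29, 12.06, 12.18 and 11.79. Replicates 2 and 3 of both groups given paricalcitol were lower than every array of the other groups, and replicates 1 and 4 of the same groups were higher than all of them. Its residual SD of 2.02 ranked 3 among the 14217 genes, against 0.89 for Alas2 at rank 193. Its r with the reticulocyte mean was 0.89.

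Markers of other blood cells were checked in the same way. Of 8 platelet markers above the floor on some array, 2 had an r over 0.5, Pf4 (0.59) and Tubb1 (0.69), while Itgb3 had 0.48 and Gp5 lay at the floor on all 19 arrays. The mean level of the platelet markers had r = 0.53 (rho 0.52) with the reticulocyte mean, and 0.41 without the 2 arrays farthest from the median. The log2 of their summed intensity had r = 0.62. That sum was 939 to 1565 in the combination, 1201 to 1498 in enalapril, 981 to 2550 in paricalcitol, 920 to 1485 in vehicle and 890 to 1614 at baseline. Of 9 neutrophil markers 2 were over 0.5, S100a9 (0.61) and S100a8 (0.66), while Lcn2 had 0.40, and Cxcr2 and Camp lay at the floor on 13 and 14 arrays. The mean level of the neutrophil markers had r = 0.51 (rho 0.47), and 0.21 without the 2 arrays farthest from the median, and the log2 of their summed intensity had r = 0.58. That sum was 330 to 1223 in the combination, 556 to 1028 in enalapril, 441 to 2222 in paricalcitol, 548 to 957 in vehicle and 363 to 567 at baseline. The part of these cells in the red cell variation was not tested. None of 6 B cell markers (median r -0.06) and none of 10 T cell markers (median -0.06) was over 0.5, and Cd79b lay at the floor on 15 arrays. Gp5, Cxcr2, Camp and Cd79b, with Hbz and Myh6 above, are named after their values were seen.

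The reticulocyte mean also moved with the main direction of variation within groups. The first principal component of deviations, over 7108 brighter genes, held 35.3% of their variance and had r = 0.81 (rho 0.81) with it over 19 arrays, and 0.75 without the 2 arrays farthest from the median. The component includes the red cell genes themselves. With the log2 median intensity of the array, which stands for its overall brightness, r was 0.20 (rho 0.08). The mean of 11 cardiomyocyte markers had r = -0.42 (rho -0.44). Of the 119 listed genes, all lists together and the 6 genes left out, 1 passed in any comparison: Cd93, an endothelial surface protein, in vehicle against baseline.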

How the data were processed

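Intensities of 31099 probe sets on 19 arrays, 1 per rat, were used as deposited. The authors' deposited values are linear intensities; on each array 16% to 18.2% of them are negative, which implies an earlier background subtraction, and the software used for this is not given in the sources used here. Per the labels' protocols, total RNA had been labelled with biotin.

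Arrays were quantile normalized together because their medians differed, negative values were raised to 0, a pseudocount of 16 was added and log2 was computed. Quantile normalization sets the value at each rank, so the brightest transcripts, globins among them, can move only by changing rank. Deposited intensities are therefore given beside them. The range of Hbb was 1.58-fold after normalization and 1.76-fold in deposited intensity. Probe sets that named 1 gene numbered 20826, and the brightest stood for each of 14217 genes. The 5 group means were estimated in limma (version 3.58.1, R version 4.3.3) with a trend on mean level and Benjamini-Hochberg adjustment over all genes. The procedure was tested on simulated data. Residual SDs come from that fit, and likeness was measured as Pearson r of deviations from group means, with 2 farthest arrays left out as a check.

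The members and gene lists were chosen with earlier results of these data known. Named were the 6 genes, listed genes that passed or were among the 3 brightest of their list, the 10 genes most like the reticulocyte mean and the 5 most like each globin; exceptions are stated. Nothing says whether rats shared a litter or a batch. Arrays of equal number deviated together in 1 of the 6 comparisons, the combination and paricalcitol (r 0.32 to 0.56 over brighter genes), so a replicate block was run as an alternative. Group and cohort cannot be told apart.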

Additional observations from a re-analysis of the deposited data

How the results depend on the processing

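The count of 0 of 6 genes passing held in all 6 comparisons under every alternative: arrays centred on their medians, the deposited values without equalisation, cyclic loess, pseudocounts of 1 and 64, dimmer genes left out, no variance trend, the compared groups alone, probe sets tested singly, array weights, a replicate block, and each array left out in turn (0 to 0). With the replicate block 0 of 6 passed, and it changed no call. In the main fit at most 0.0844% of all genes passed in any comparison. A count of 0 of 6 was thus likely beforehand, and its constancy says little. Of 672 recomputed differences, 670 moved by less than 1 residual SD of the gene, and 98 took the other sign, all from differences of at most 0.32 in size. The 2 that moved more were Epb42 with a pseudocount of 1, at -1.72 in paricalcitol against vehicle and -1.46 in the combination against vehicle, where arrays below 0 set the value. The r of Alas2 with Hbb was 0.84 after median centring and 0.83 after cyclic loess, against 0.94 here and 0.96 in the deposited values. That of Alas2 with Hba-a3 stayed between 0.97 and 0.98. Slopes on Alas2, an addition made after seeing the data, were 0.18 to 0.21 for Hbb and 0.49 to 0.51 for Hba-a3, and 0.76 for Ahsp with a pseudocount of 64. Signal near the floor limits Epb42, and closeness to the top of the scale may limit Hbb.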

Other observations

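Genes of haem breakdown and iron handling were also compared with the reticulocyte mean. Of 9 measured genes that break down or scavenge haem, 2 had an r over 0.5 with the reticulocyte mean over 19 arrays. Their 3 brightest were Lrp1 (0.34), the receptor for haemopexin-bound haem, Hmox2 (-0.22) and Hmox1 (0.15), the constitutive and the inducible haem oxygenase. The other two were Cd163, the macrophage receptor for haemoglobin bound to haptoglobin, at 0.68, and Hp, haptoglobin, at 0.77 and faint (mean level 5.91), both named after their values were seen. Of 6 iron genes, 2 were over 0.5, Slc11a2, an iron importer, at 0.63 and Cp, ceruloplasmin, at 0.50 and named after its value was seen, while Steap3, an endosomal ferrireductase of red cell precursors, had -0.68 and Aco1, the iron regulatory protein, 0.19.

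Of 9 measured endothelial markers 1 had an r over 0.5 and 3 were under -0.5, with a median of -0.11, and their mean level had r = -0.14 (rho -0.06). The 3 brightest were Kdr (0.14), Esam (-0.11) and Vwf (0.76), and the 3 under -0.5 were Tek (-0.78), Tie1 (-0.74) and Emcn (-0.57), named after their values were seen. Without the 2 arrays farthest from the median of the reticulocyte mean, the r of the mean level was -0.51. Of 11 cardiomyocyte markers 1 was over 0.5 and 1 under -0.5, with a median of -0.30. Their 3 brightest were Nppa (0.77), Tnnt2 (-0.29) and Myh7 (0.19).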
